A study of Mus musculus with 60 samples.

Results

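The HOX genes of the clusters Hoxa, Hoxb, Hoxc and Hoxd were followed through adipocyte differentiation of mouse C3H10T1/2 cells with altered Tet1. Members were the rows whose symbol was Hox, a cluster letter from a to d and a paralog number, and 39 of the 24982 genes in each expression table met this rule, 11 in Hoxa, 10 in Hoxb, 9 in Hoxc and 9 in Hoxd. C3H10T1/2 is a mouse mesenchymal line, called preadipocytes in the labels, and every group carries its background. The first table held WT cells and Tet1-KO cells, in which the gene for the DNA demethylation enzyme TET1 is labelled as knocked out. The second held cells labelled 23-NC, 23-Tet1 and 23-CATA, and what 23, NC and CATA stand for is not stated in the labels. Each population had 3 RNA-seq libraries, made from total RNA with an Illumina TruSeq RNA kit, at days 0, 2, 4 and 6, which makes 20 groups and 60 libraries. Differentiation was induced for 48 h with dexamethasone (1 µM), IBMX (0.5 mM), rosiglitazone (1 µM), T3 (1 nM) and insulin (10 µg/ml) in 10% serum, and serum with insulin at 5 µg/ml followed. Whether Tet1-KO or the 23-labelled cells are single clones is not given in the labels, and since no label ties replicates to separate cultures, the p-values rest on the spread between these libraries alone, which may be technical.

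HOX genes encode homeodomain transcription factors that give cells their position along the head-to-tail axis. Within a cluster the genes lie in the order of their paralog numbers, and low numbers act towards the head and high numbers towards the tail. Paralogs with the same number in different clusters descend from a shared ancestor, and cultured mesenchymal cells and fat depots often keep the HOX pattern of the place they came from. In many cells silent clusters lie under Polycomb marks, and TET1, which oxidises 5-methylcytosine, is also known at CG-rich promoters, which are common in these clusters.

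Depth, read from the spacing of the lowest values, lay between 11 and 18 M fragments (median 14.1 M) in 59 libraries. It was unclear in Tet1-KO day 6 replicate 2, which listed 11805 genes above 0 against 13837 to 15063 in the others. Results that this library touches are given with and without it. Tet1 stood at 0.88, 1.12 and 1.03 FPKM (fragments scaled by transcript length and library size) in WT at day 0 and at 0.26, 0.24 and 0.25 in Tet1-KO, and was at most 0.11 in the first table after that. In the second table it lay between 0 and 0.12 in 23-NC, between 4.04 and 7.46 in 23-Tet1 and between 5.75 and 21.56 in 23-CATA. Mesenchymal markers (Col1a1, Col1a2, Pdgfra, Pdgfrb, Thy1) were present throughout, with sums from 73.4 to 3066 FPKM. Markers of skeletal muscle and pluripotent cells stayed under 1 FPKM in every library, epithelial and endothelial sums reached 3.17 and 2.08, and the leukocyte sum, up to 132, came almost wholly from Cd68.

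Most HOX genes were silent, which here means under 1 FPKM in every library of a table. Silent members numbered 29 of 39 (74.4%) in each of the tables, against 49.9% and 49.8% of all genes, and 28 were silent in both. All 10 Hoxb and all 9 Hoxd genes were silent in both tables, with highest values of 0.22 and 0.04 FPKM in the first and 0.16 and 0 in the second. Most transcribed members were in Hoxa: Hoxa2 to Hoxa7 and Hoxa10 passed 1 FPKM in both tables, whereas Hoxa9, Hoxa11 and Hoxa13 did not. Hoxa9, a gene best known from blood cells and leukaemia, lies between Hoxa7 and Hoxa10 and reached at most 0.48 and 0.41 FPKM. Hoxc gave only Hoxc9 in both tables, Hoxc13 in the first alone and Hoxc6 in the second alone. Members just under the limit were Hoxc6 in the first table (highest value 0.62) and Hoxc13 in the second (0.61), and those just over it were Hoxa6 in the first (1.44) and Hoxc6 in the second (1.51). No gene of paralog numbers 8, 11 or 12 passed in either table, and 10 members were listed at 0 in all 60 libraries.

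The Hoxa cluster supplied 76.6 to 98.7% (median 93.7) of the summed HOX FPKM of a library in the first table and 93.8 to 99.8% (median 98.0) in the second. The lowest share was in Tet1-KO day 6 replicate 1, where Hoxc supplied 23.4%, nearly all of it Hoxc9. In the GENCODE M21 annotation of mm10 the Hoxa genes lie on chromosome 6 on the minus strand, Hoxb spans chr11:96194316-96368256, Hoxc spans chr15:102921103-103036852 and Hoxd spans chr2:74668310-74765142, these 3 on the plus strand. Exons of Hoxa3 overlap the antisense genes Hoxaas2 and Hoxaas3, and those of Hoxa7 overlap Hoxaas3. Counting by strand is not given in the sources used here, so reads of these pairs cannot be told apart.

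**Figure D1:**
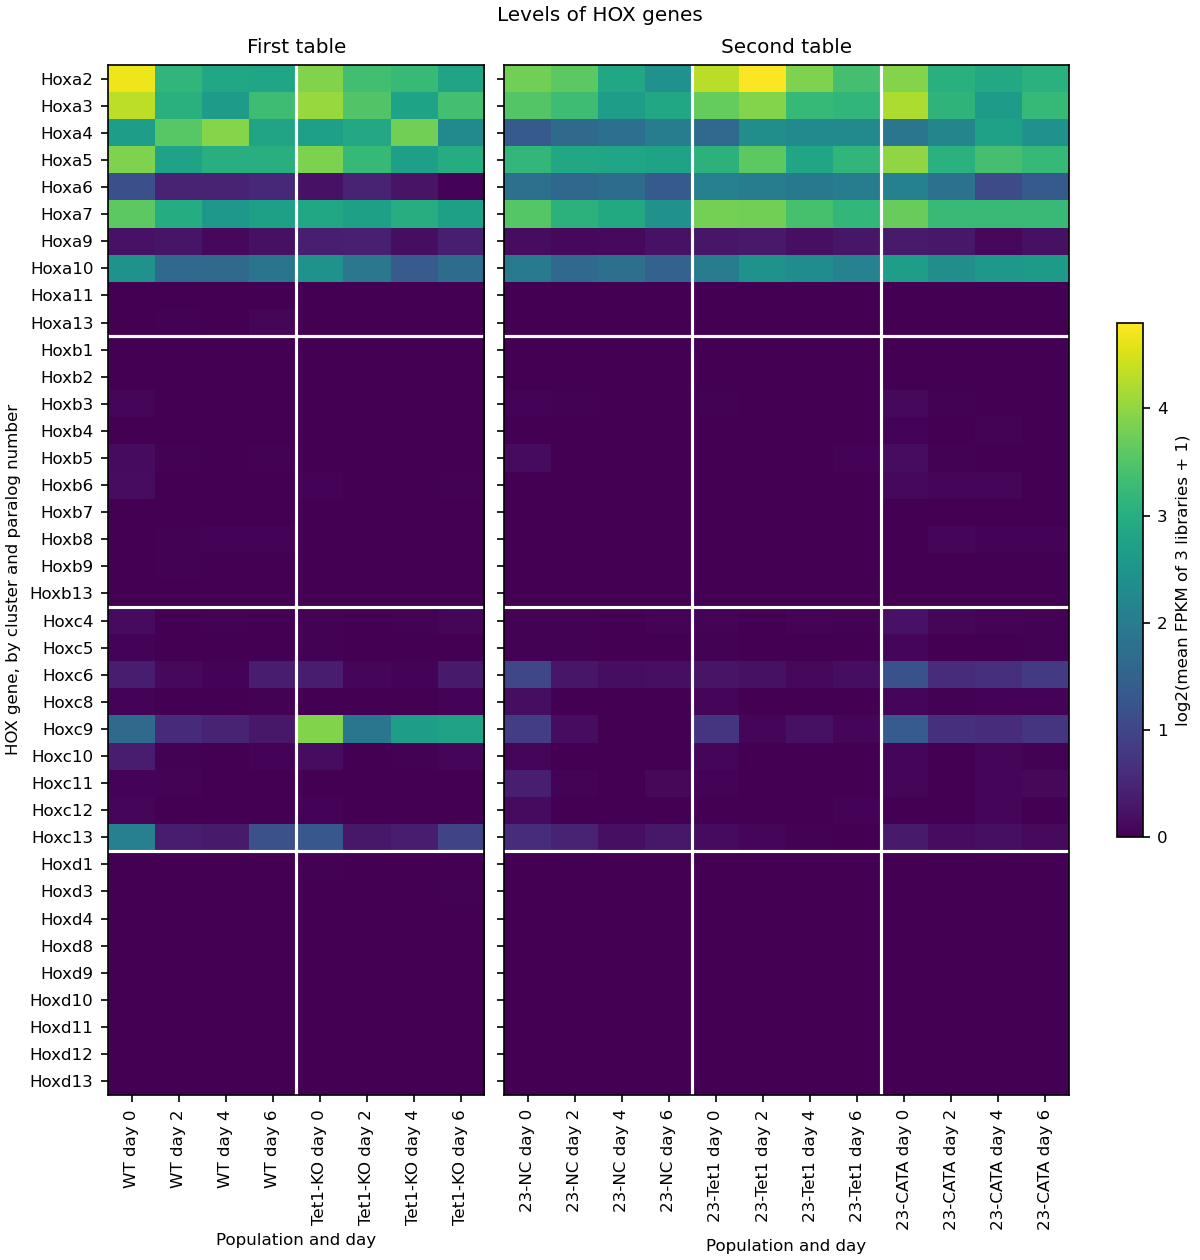
Mean level of HOX genes (rows, by cluster and paralog number) in each group of 3 libraries (columns), coloured by log2(mean FPKM + 1). The bright rows are Hoxa2 to Hoxa5, Hoxa7 and Hoxa10, while Hoxa6 is dim in the first table. Hoxc9 is bright in Tet1-KO, and the Hoxb and Hoxd rows are dark in every group.

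Promoters of members on both sides of the silent limit are shown next, from RefSeq (GRCm38.p6), each 250 bases before to 50 after a start site on the gene's strand, 5′ to 3′, with CG dinucleotides in capitals because CG is where 5-methylcytosine sits. Hoxa2 (chr6:52164782-52165081, minus strand) and Hoxa7 (chr6:52218524-52218823, minus) were transcribed and higher in 23-Tet1 than in 23-NC on every day. Hoxa10 has 2 start sites (chr6:52234890-52235189 and chr6:52240805-52241104, minus) and was higher in 23-CATA on every day. Hoxa9 (chr6:52227321-52227620, minus) is the silent gene between them, and Hoxd9 (chr2:74697513-74697812, plus), its paralog in Hoxd, was listed at 0 throughout.
Hoxa2: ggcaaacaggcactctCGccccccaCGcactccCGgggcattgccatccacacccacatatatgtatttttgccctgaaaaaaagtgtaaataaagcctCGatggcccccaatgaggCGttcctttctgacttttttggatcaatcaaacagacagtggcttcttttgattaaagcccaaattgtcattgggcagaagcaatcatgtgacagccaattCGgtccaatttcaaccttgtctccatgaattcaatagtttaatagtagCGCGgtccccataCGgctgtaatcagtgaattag
Hoxa7: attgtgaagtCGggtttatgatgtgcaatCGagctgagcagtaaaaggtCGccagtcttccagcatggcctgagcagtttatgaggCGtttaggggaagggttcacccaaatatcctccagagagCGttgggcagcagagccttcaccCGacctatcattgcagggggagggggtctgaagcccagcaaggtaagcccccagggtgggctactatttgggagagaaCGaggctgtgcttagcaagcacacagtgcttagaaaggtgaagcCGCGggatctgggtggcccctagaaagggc
Hoxa9: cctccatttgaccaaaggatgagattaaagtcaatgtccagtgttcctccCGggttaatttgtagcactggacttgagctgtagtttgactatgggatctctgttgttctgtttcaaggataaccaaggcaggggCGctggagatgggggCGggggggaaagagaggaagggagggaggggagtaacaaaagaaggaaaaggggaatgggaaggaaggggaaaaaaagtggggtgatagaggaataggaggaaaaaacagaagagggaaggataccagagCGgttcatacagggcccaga
Hoxa10, start 1: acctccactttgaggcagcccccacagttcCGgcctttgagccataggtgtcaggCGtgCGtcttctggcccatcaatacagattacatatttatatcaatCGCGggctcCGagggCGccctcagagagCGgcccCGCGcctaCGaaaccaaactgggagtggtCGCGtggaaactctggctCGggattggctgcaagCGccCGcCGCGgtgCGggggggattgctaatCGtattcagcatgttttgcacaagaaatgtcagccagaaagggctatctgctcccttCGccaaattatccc
Hoxa10, start 2: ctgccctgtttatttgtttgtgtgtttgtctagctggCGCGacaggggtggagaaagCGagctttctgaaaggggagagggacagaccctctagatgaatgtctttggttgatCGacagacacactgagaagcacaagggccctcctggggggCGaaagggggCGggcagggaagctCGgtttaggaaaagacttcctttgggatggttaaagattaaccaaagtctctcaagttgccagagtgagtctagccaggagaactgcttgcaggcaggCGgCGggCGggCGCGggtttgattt
Hoxd9: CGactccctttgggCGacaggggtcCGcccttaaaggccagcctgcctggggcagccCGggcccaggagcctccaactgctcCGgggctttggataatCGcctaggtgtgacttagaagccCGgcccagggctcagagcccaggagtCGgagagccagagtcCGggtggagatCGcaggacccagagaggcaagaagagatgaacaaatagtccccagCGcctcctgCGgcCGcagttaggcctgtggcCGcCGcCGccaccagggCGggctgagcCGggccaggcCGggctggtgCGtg
These windows hold 9 CG dinucleotides for Hoxa2, 9 for Hoxa7, 4 for Hoxa9, 21 and 12 for Hoxa10 and 20 for Hoxd9.

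The table holds 24 promoters of 22 members, and the median of all 32851 promoters in it was 7 CG. The 7 promoters of genes above the limit held 9 to 29 CG (median 20) and the 17 of silent genes 4 to 45 (median 14), so the ranges overlapped widely. Silent Hoxa13 had 45 CG and silent Hoxd13 had 37, more than the 7 promoters of transcribed members in the table. The letters TATAAA occurred in 4 of the 24 member promoters (13.6% of all promoters), CCAAT in 15 (37.4%) and TGATNNAT, which resembles the site of HOX proteins with PBX partners, in 4 (8.85%), each searched on both strands without regard to overlaps between motifs. Hoxa2 held CCAAT 4 times and TGATNNAT once.

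**Figure D2:**
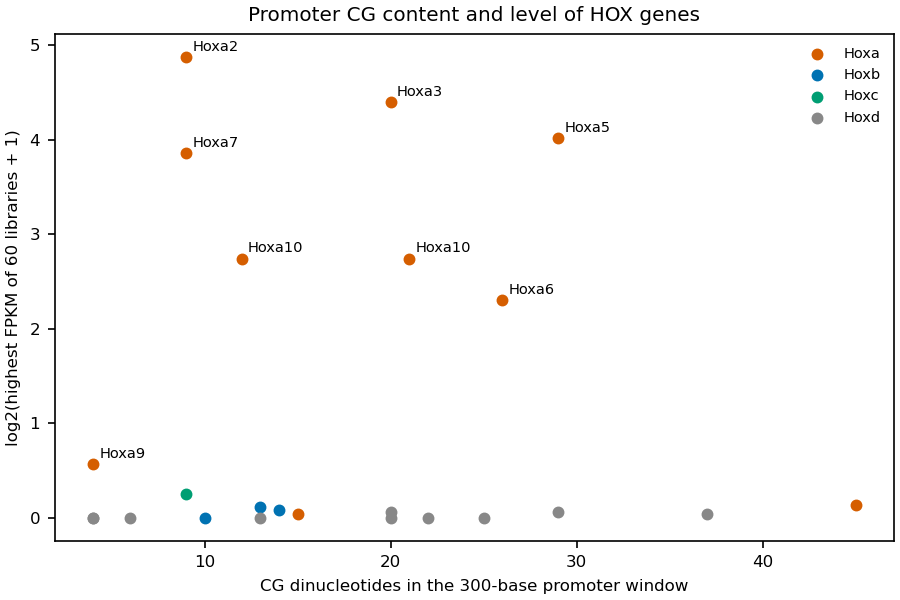
CG dinucleotides in the promoter window (x axis) against log2(highest FPKM of 60 libraries + 1) of the gene (y axis), one point per promoter, coloured by cluster. The transcribed Hoxa genes shown, Hoxa4 not among them, lie between 9 and 29 CG, and the silent genes along the bottom lie between 4 and 45.

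In WT cells at day 0, Hoxa2, which patterns the hindbrain and the second branchial arch, was the most abundant member per length at 24.2, 23.7 and 26 FPKM. Hoxa3, which acts in thymus and parathyroid formation, followed at 18.6, 17.9 and 20.1. Hoxa5, a gene of the neck-thorax boundary and the lung, stood at 14.6, 14 and 12.5 and overlapped with Hoxa7, a gene of the thoracic region, at 10.2, 9.99 and 13. Below them came Hoxa4 (5.38 ± 0.54, mean ± SD, n = 3), Hoxa10 (4.51 ± 0.15), Hoxc13 (3.28 ± 0.16), Hoxc9 (2.17 ± 0.27) and Hoxa6 (1.25 ± 0.32), and these 5 did not overlap with each other. In 23-NC at day 0 the order began with Hoxa2 (12.7 ± 1.38), Hoxa7 (10.6 ± 0.08), Hoxa3 (10.5 ± 1.16) and Hoxa5 (8.01 ± 1.14), where the libraries of Hoxa3 overlapped with those of both Hoxa2 and Hoxa7. Levels of the 2 tables are not compared, since whether they were normalised alike was not tested.

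Most HOX genes that could be tested fell when WT cells differentiated, and Hoxa4 rose for a time. Each change below is a log2 change of FPKM + 1 less the median of that change over the genes tested, ± SE. A gene was called at a limma adjusted p under 0.05 over all genes tested. Both the SE and the p-value are those of the fitted change, before the median was taken off. The relative change itself was not tested. Members that passed the filter, at least 1 FPKM in 3 libraries, numbered 10 of 39 in each table. A gene can pass that filter through a group in which it is high. In the second table Hoxc6 reached 1 FPKM in 5 libraries and Hoxc9 in 4, all at day 0 in 23-NC or 23-CATA. Their falls from day 0 in those populations, and their higher day 0 levels there, thus follow in part from the filter. In the first table Hoxa6 reached 1 FPKM in 3 libraries, WT day 0 replicates 2 and 3 among them. The falls of Hoxa6 from day 0 in WT, and its lower day 0 level in Tet1-KO, follow in part from the filter too. Of these 10, 8 were called lower at day 2, 8 at day 4 and 8 at day 6 against day 0, where 43.2%, 49.2% and 37.4% of all genes tested were called lower. Hoxa4 was called higher at day 4, where 18.1% of all genes were. The median fitted change of the 10 was -0.98, -0.94 and -0.86, against -0.39, -0.52 and -0.29 for all genes tested. In bulk RNA, fewer cells that transcribe a gene and less RNA per cell cannot be told apart. Since FPKM is scaled by library size, a rise of other RNA cannot be told apart from these either.

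Hoxa2 fell from its day 0 level to 7.67, 7.35 and 8.81 FPKM at day 2, 5.82, 6.82 and 6.26 at day 4 and finally 7.82, 4.28 and 6.27 at day 6, and no later library reached a day 0 library. Its changes were -1.13 ± 0.37, adjusted p = 0.00143 at day 2, -1.3 ± 0.37, adjusted p = 0.000246 at day 4 and -1.59 ± 0.37, adjusted p = 0.000265 at day 6. Hoxa3 stood at 6.25, 8.13 and 7.32 at day 2, 4.77, 5.19 and 5.65 at day 4 (-1.17 ± 0.15, adjusted p = 2.47e-08) and then 10.2, 7.96 and 8.54 at day 6. It was lowest at day 4 and remained below day 0 at day 6 (-0.72 ± 0.15, adjusted p = 1.88e-05). Hoxa5 fell to 5.37, 5.98 and 6.04 at day 2 (-0.72 ± 0.17, adjusted p = 1.88e-05). It stood at 7.09 ± 0.58 (mean ± SD) at day 4 and at 7.87, 6.64 and 7.05 at day 6. Each day 6 library lay above those of day 2 and below those of day 0, and day 6 was not tested against day 2.

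Hoxc13, a gene of hair and nail formation, fell from 3.09, 3.36 and 3.38 FPKM at day 0 to 0.27, 0.15 and 0.43 at day 2 and 0.20, 0.22 and 0.42 at day 4, and stood at 1.07, 1.0 and 1.79 at day 6. Its changes were -1.35 ± 0.18, adjusted p = 2.26e-07 at day 2 and -0.63 ± 0.18, adjusted p = 0.000317 at day 6. Hoxc9, often used as a marker of white fat in mice, fell from 1.95, 2.09 and 2.47 to 0.09, 0.30 and 0.32 at day 6 (-1.07 ± 0.39, adjusted p = 0.00576), and no later library overlapped with day 0. Hoxa4, a gene of the neck vertebrae, went the other way, from 5.31, 4.87 and 5.95 at day 0 to 10.7, 11.6 and 9.74 by day 2 and 12.4, 14.9 and 15.4 by day 4. The groups did not overlap at days 2 and 4, the change passed the test at day 4 (1.77 ± 0.48, adjusted p = 0.0254) and not at day 2 (1.26 ± 0.48, adjusted p = 0.119), and at day 6 the values were 6.08, 5.33 and 6.53.

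Of the other members in WT, Hoxa10 and Hoxa6 were called lower on all 3 days, and Hoxa7 at days 4 and 6. With quantile normalisation 4, 3 and 4 members were called lower at days 2, 4 and 6 and Hoxa4 was also called higher at day 2, and with median-ratio scaling 5, 3 and 6 were called lower and Hoxa4 again higher at day 2. Hoxa10 had a fitted change of 0.04 at day 4 with quantile normalisation. At day 4 Hoxa4 lost its call with a pseudocount of 0.1 FPKM or without WT day 0 replicates 1 or 2 or WT day 4 replicates 2 or 3 (adjusted p = 0.054 to 0.196). Hoxa6 lost its calls on all 3 days with a pseudocount of 0.1 FPKM and under either scaling (adjusted p = 0.0747 to 0.651), at day 2 without WT day 2 replicate 2 (0.0552), at day 4 without WT day 4 replicate 3 (0.0512) and at day 6 without WT day 0 replicates 2 or 3 or WT day 6 replicate 2 (0.0606 to 0.143). Hoxc9 lost its calls with quantile normalisation on all 3 days (0.0674 to 0.379) and with median-ratio scaling at days 2 and 4 (0.0758 and 0.0632). Its day 2 call also ended when WT day 0 replicate 3 (0.0567) or WT day 2 replicate 2 (0.0595) was left out. The day 6 call of Hoxa7 ended without WT day 0 replicate 3 (0.0526), and that of Hoxc13 with quantile normalisation (0.0965). Hoxa5 and Hoxa7 at day 4 and Hoxa10 at days 4 and 6 were not called under either scaling (0.0603 to 0.899), nor Hoxa10 at day 2 with quantile normalisation (0.865). Over the same days the summed adipocyte markers (Adipoq, Fabp4, Plin1, Cidec, Lpl) went from 40.1 to 176 FPKM at day 0 to 50037 to 65429 at day 2 in WT, and the mesenchymal sum from 1945 to 2426 down to 173 to 229, and the part of this shift in the HOX changes was not tested.

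**Figure D3:**
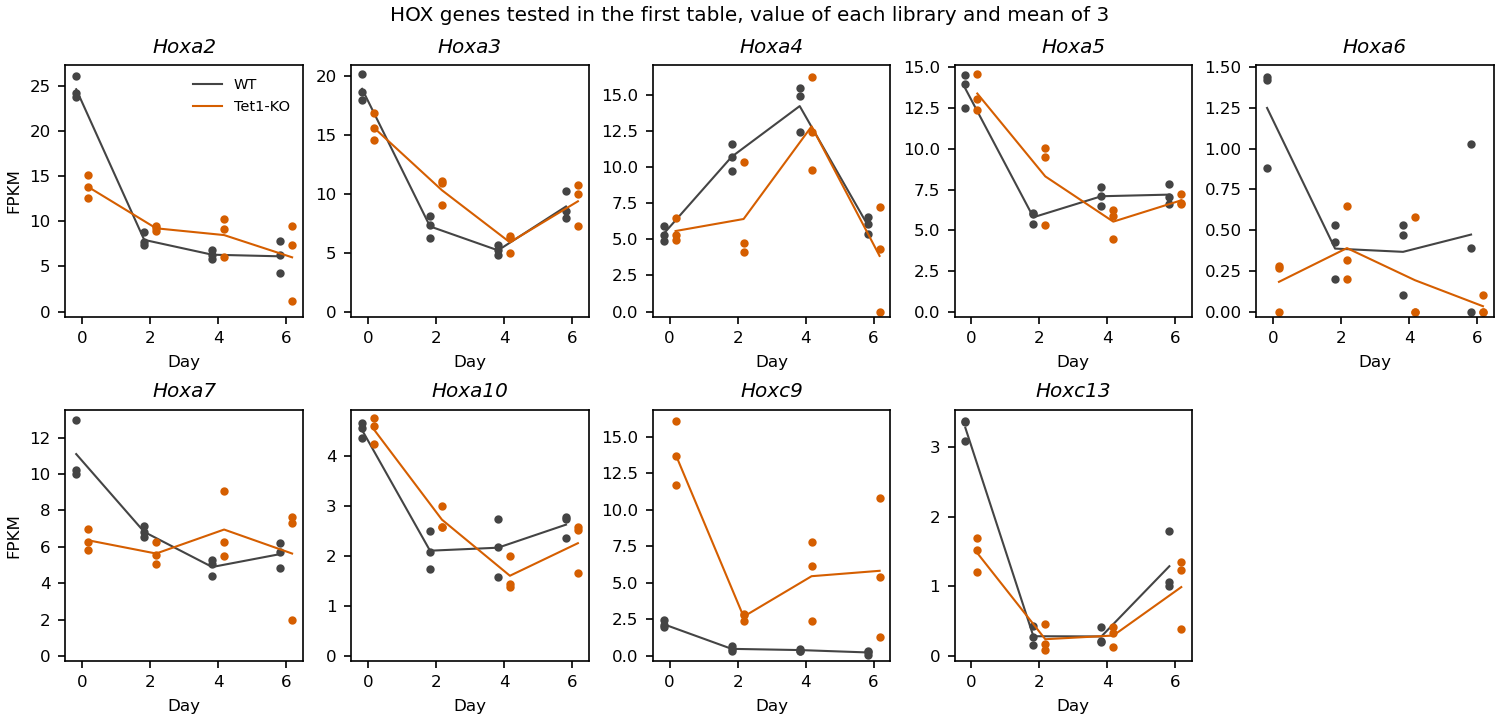
FPKM of HOX genes tested in the first table by day, 1 point per library and a line through the mean of 3, WT grey and Tet1-KO orange (y axes start at 0 and differ between panels). WT means of most genes are lower after day 0, those of Hoxa4 are higher at days 2 and 4, and Hoxc9 lies higher in Tet1-KO on each day.

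Hoxc9 was higher in Tet1-KO than in WT on every day. At day 0 it stood at 16.1, 13.7 and 11.7 FPKM in Tet1-KO and 1.95, 2.09 and 2.47 in WT (2.31 ± 0.39, adjusted p = 0.00073). At day 2 the values were 2.85, 2.39 and 2.83 against 0.65, 0.32 and 0.48 (1.15 ± 0.39, adjusted p = 0.0205), and at day 4 7.83, 2.41 and 6.13 against 0.35, 0.37 and 0.48 (2.01 ± 0.39, adjusted p = 0.00177). At day 6 they were 10.8, 5.43 and 1.27 against 0.09, 0.30 and 0.32 (2.37 ± 0.39, adjusted p = 0.000248). The groups did not overlap on any day, but the Tet1-KO libraries spread widely at days 4 and 6. Its neighbours in the cluster stayed silent: Hoxc10 reached at most 0.48 and Hoxc8 at most 0.1 FPKM in the first table. At day 2 Hoxc9 lost its call with quantile normalisation or without WT day 2 replicate 2 or Tet1-KO day 2 replicates 1 or 3 (adjusted p = 0.0662 to 0.0843). At day 6 Hoxc9 lost its call when only the compared groups were fitted (adjusted p = 0.0591).

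Few other members were called between Tet1-KO and WT. SEs of the members shown were 0.15 to 0.48 here, against 0.07 to 0.21 between populations of the second table. At day 0, 3 of the 10 tested were called, Hoxc9 higher and Hoxa6 and Hoxc13 lower, where 16.8% of all genes were called. Hoxa6, another gene of the neck-thorax boundary, was 0.28, 0 and 0.27 FPKM in Tet1-KO against 0.88, 1.42 and 1.44 in WT (-0.83 ± 0.23, adjusted p = 0.00894). Hoxc13 was 1.53, 1.2 and 1.7 against 3.09, 3.36 and 3.38 (-0.70 ± 0.18, adjusted p = 0.00646). Neither pair of groups overlapped. Hoxa6 passed the filter in part through WT libraries of day 0, so its lower level in Tet1-KO gives no separate support. The adipocyte sums at day 0 were 216 to 398 FPKM in Tet1-KO and 40.1 to 176 in WT, and the mesenchymal sums overlapped. Hoxa6 lost its call with a pseudocount of 0.1 FPKM, with quantile normalisation or without Tet1-KO day 0 replicate 2 (adjusted p = 0.0578 to 0.0827). The call of Hoxc13 ended with a pseudocount of 0.1 FPKM or with quantile normalisation (adjusted p = 0.119 to 0.128).

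Hoxa2 and Hoxa7 were also lower in every Tet1-KO library than in every WT library at day 0, without a call. Hoxa2 stood at 15.1, 13.8 and 12.6 FPKM in Tet1-KO (-0.70 ± 0.37, adjusted p = 0.149) and Hoxa7 at 6.28, 5.83 and 6.96 (-0.62 ± 0.28, adjusted p = 0.0852). All groups of a table share one estimate of the spread, and both genes spread most in Tet1-KO at day 6, where replicate 2 gave 1.13 and 1.96. Without that library both were called lower at day 0, with adjusted p = 0.00232 and 0.00167, and the count became 5.

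After induction Hoxc9 was called higher in Tet1-KO on each day and Hoxa3 at day 2. At day 2, 2 members were called, both higher (16.2% of all genes called higher), Hoxc9 and Hoxa3, the latter at 11.1, 9.05 and 10.9 FPKM against 6.25, 8.13 and 7.32 (0.30 ± 0.15, adjusted p = 0.0357). At days 4 and 6 only Hoxc9 was called (9.79% and 15.7% of all genes called higher), and at day 6 there were 2 calls without WT day 6 replicate 2 or without any 1 of the Tet1-KO day 6 libraries. With library weights the calls were 3 higher and 1 lower at day 2, 5 higher and 4 lower at day 4 and 1 higher at day 6. The share of all genes called was not worked out for this or any other alternative fit. Such counts are thus not read as a result about HOX genes. Hoxa4 at day 2 was 4.75, 10.3 and 4.1 in Tet1-KO, so replicate 2 lay within the WT range of 9.74 to 11.55 and the other libraries below it (-0.91 ± 0.48, adjusted p = 0.264). In the same library Hoxa5 stood at 5.34, close to WT, with 9.53 and 10.1 in the others. Adipocyte markers summed to 48340 FPKM in Tet1-KO day 2 replicate 2 against 8202 and 10485 in the others, and to 85428 at day 4 in replicate 2 against 40039 and 23082, and their part in these values was not tested. At day 2 Hoxa3 lost its call with quantile normalisation, with median-ratio scaling, when only the compared groups were fitted or without WT day 2 replicates 1, 2 or 3 or Tet1-KO day 2 replicates 1 or 3 (adjusted p = 0.0502 to 0.549).

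With replicate 2 of Tet1-KO left out at days 2, 4 and 6, an alternative chosen after seeing the data, 5, 4 and 4 members were called. Hoxa4 was then lower at day 2 (fitted change -1.1, adjusted p = 4.25e-05), and Hoxa5 was higher at day 2 (0.67, 0.000193) and lower at day 4 (-0.40, 0.0114). Hoxa2 and Hoxa7 were then higher at day 4 (0.55, 0.011 and 0.54, 0.00523). At day 6 Hoxa2 and Hoxa7 turned from fitted changes below 0 to 0.43 and 0.37 and were called higher (adjusted p = 0.0371 and 0.0438). In Tet1-KO day 6 replicate 2 Hoxa4 was listed at 0, against 7.23 and 4.33 FPKM in the others. Leaving out only Tet1-KO day 6 replicate 2 gave counts of 4, 2 and 2 at days 2, 4 and 6.

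In Tet1-KO cells the FPKM of some HOX genes also fell over time. Adipocyte sums there were 216 to 398 FPKM at day 0 and 29115 to 34073 at day 6, and their part was not tested. Between day 0 and day 6, 5 members were called lower (Hoxa2, Hoxa3, Hoxa5, Hoxa10 and Hoxc9) and none higher, where 36% of all genes were called lower. Hoxa2 went to 7.39, 1.13 and 9.5 FPKM (-0.99 ± 0.37, adjusted p = 0.00669; fitted change -1.37, and -0.66 with adjusted p = 0.0117 without replicate 2 of day 6), Hoxa5 from 13.1, 14.6 and 12.4 to 6.64, 7.2 and 6.68 (-0.49 ± 0.17, adjusted p = 0.000852) and Hoxa10, a gene of the lumbar region and the uterus, from 4.23, 4.59 and 4.75 to 2.51, 2.58 and 1.65 (-0.40 ± 0.15, adjusted p = 0.000798). Hoxc9 fell as well (-1.02 ± 0.39, adjusted p = 0.00771). When only these 2 groups were fitted no member was called, with quantile normalisation 1 was and with median-ratio scaling 2 were. Without Tet1-KO day 6 replicate 2, 6 were called. The change from day 0 to day 6 was called as different between Tet1-KO and WT for none of the 10 members in limma (17.8% of all genes called). SEs of this difference were 0.22 to 0.67 for the members shown, against 0.10 to 0.29 for such differences in the second table. A missing call here therefore does not show that the change was alike. At an unadjusted limma p under 0.05 there was 1, Hoxc13, and with library weights 4 were called. Leaving out Tet1-KO day 6 replicate 1, 2 or 3 gave 1, 2 and 1 calls. Without Tet1-KO day 6 replicate 2 the difference was called for Hoxa2 (fitted 1.22, adjusted p = 0.00256) and Hoxa7 (1.07, 0.00208), which fell less in Tet1-KO.

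**Figure D4:**
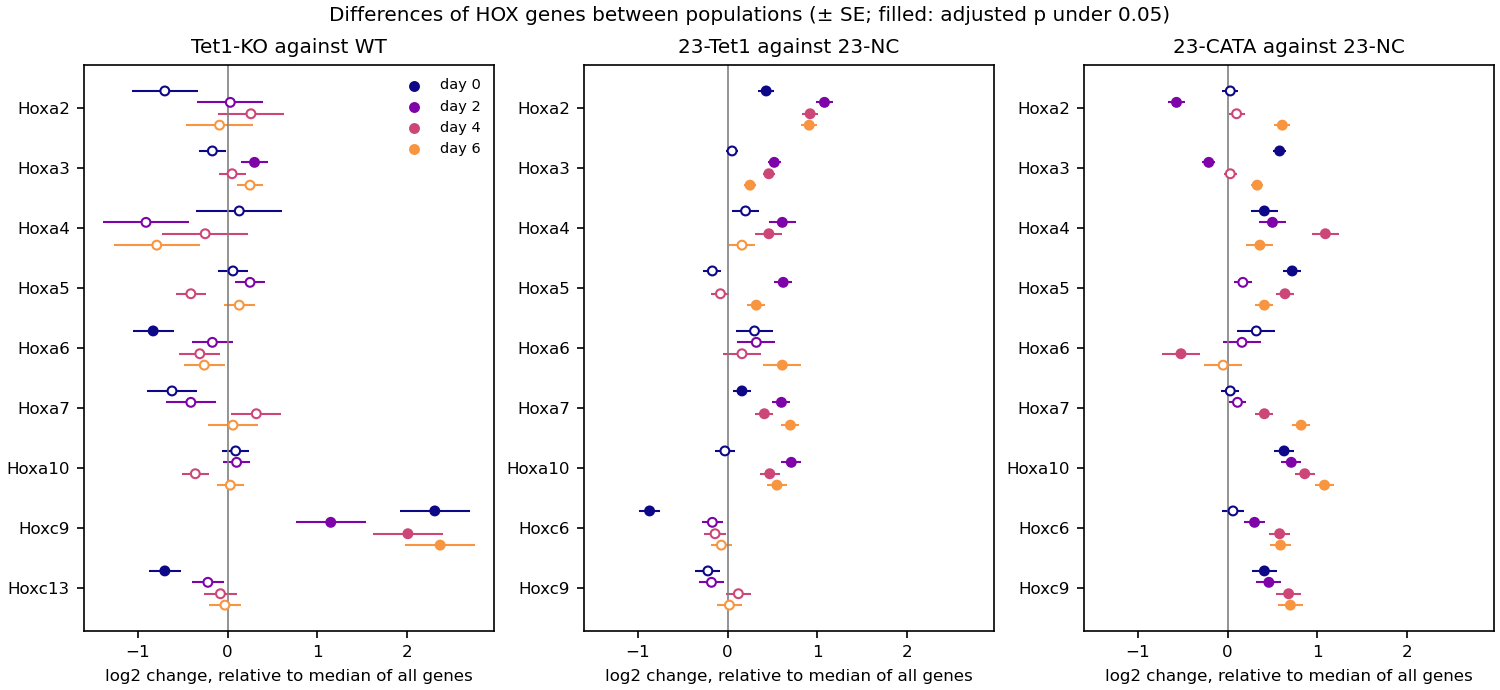
Relative log2 change ± SE (x axis) of tested HOX genes (y axis) in Tet1-KO against WT, 23-Tet1 against 23-NC and 23-CATA against 23-NC, coloured by day. Points are filled where the adjusted p of the fitted change is under 0.05. Hoxc9 lies far to the right in Tet1-KO, most Hoxa genes lie to the right in 23-Tet1 from day 2, and Hoxa10 lies to the right on each day in 23-CATA.

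In cells labelled 23-Tet1, Hoxa2 and Hoxa7 were called higher than in 23-NC on all 4 days. At day 0, 3 of 10 members were called, Hoxa2 and Hoxa7 higher and Hoxc6 lower (61.3% of all genes called), and without the filter on low values 2 were called higher and 6 lower. At days 2, 4 and 6 the members called were 7, 6 and 7, all of them higher, where 38.7%, 35% and 36% of all genes were called higher. All of these 20 calls were in Hoxa, and leaving out any 1 library ended none of them. The median fitted change of the 10 was 0.68, 0.49 and 0.45 on these days, against 0.09, 0.08 and 0.05 for all genes.

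Hoxa2 stood at 18.5, 18.2 and 19.2 FPKM in 23-Tet1 at day 0 and 14.2, 12.3 and 11.5 in 23-NC (0.43 ± 0.09, adjusted p = 1.15e-05). At day 2 it stood at 28.4, 22.3 and 28.2 in 23-Tet1 against 11, 10.7 and 11.4 (1.08 ± 0.09, adjusted p = 3.09e-12). At day 4 the values were 13.2, 12.9 and 15 against 5.88, 6.21 and 6.88 (0.92 ± 0.09, adjusted p = 1.26e-10), and at day 6 9.24, 9.63 and 9.58 against 4.23, 4.53 and 4.38 (0.91 ± 0.09, adjusted p = 2.15e-10). Every 23-Tet1 library lay above every 23-NC library of its day, on all 4 days. Hoxa7 showed the same order on each day, from 13.3, 12.9 and 12.4 against 10.5, 10.6 and 10.7 at day 0 (0.16 ± 0.10, adjusted p = 0.0261) to 8.16, 8.66 and 7.27 against 4.51, 4.38 and 4.2 at day 6 (0.70 ± 0.10, adjusted p = 1.37e-07). At day 0 Hoxa7 lost its call with quantile normalisation, with median-ratio scaling or without 23-NC day 0 replicates 1 or 2 or 23-Tet1 day 0 replicates 1 or 2 (adjusted p = 0.0514 to 0.292).

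Hoxa10 was not called at day 0 (-0.03 ± 0.11, adjusted p = 0.651) and was higher in 23-Tet1 from day 2, at 5.3, 3.53 and 4.53 FPKM against 2.23, 1.86 and 2.23 (0.71 ± 0.11, adjusted p = 2.81e-07). It stood at 3.59, 3.92 and 4.6 against 2.37, 2.53 and 2.37 at day 4 and at 3.81, 3.54 and 2.71 against 1.7, 1.87 and 1.98 at day 6 (0.55 ± 0.11, adjusted p = 2.25e-05). Hoxa3 was higher from day 2 on too, with 8.13, 8.33 and 8.4 against 5.21, 5.57 and 5.36 at day 4 (0.46 ± 0.07, adjusted p = 2.81e-07). None of these groups overlapped.

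Hoxa4 was called higher in 23-Tet1 at days 2 and 4, with 4.61, 4.22 and 3.65 FPKM against 2.56, 1.78 and 2.18 at day 2 (0.61 ± 0.15, adjusted p = 0.00012) and 3.67, 4.51 and 3.48 against 2.89, 2.1 and 2.06 at day 4 (0.46 ± 0.15, adjusted p = 0.00206). Hoxa5 was called at day 2, with 13.3, 10.9 and 9.08 against 5.69, 6.69 and 6.54 (0.62 ± 0.10, adjusted p = 6.49e-07), and at day 6. Hoxa6 was called at day 6 alone, with 2.51, 3.14 and 3.59 against 1.64, 1.32 and 1.76 (0.61 ± 0.21, adjusted p = 0.00668). Hoxc6, a gene of the thoracic region, was lower in 23-Tet1 at day 0, 0.09, 0.31 and 0.19 against 1.16, 1.09 and 0.88 (-0.87 ± 0.12, adjusted p = 3.73e-06), and neither Hoxc6 nor Hoxc9 was called on a later day. With quantile normalisation and with median-ratio scaling the day 0 calls were 1 higher and 1 lower. At day 2 the adipocyte markers differed in both directions, with Adipoq (1.63 ± 0.09), Cidec (1.05 ± 0.09) and Plin1 (0.30 ± 0.06) called higher in 23-Tet1 and Fabp4 (-0.91 ± 0.26) and Lpl (-1.76 ± 0.07) lower, and their sums were 1571 to 1816 against 2633 to 2824 FPKM. At day 6 all 5 were called higher, with sums of 49726 to 57607 against 10415 to 11804, and the part of these markers in the HOX values was not tested.

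**Figure D5:**
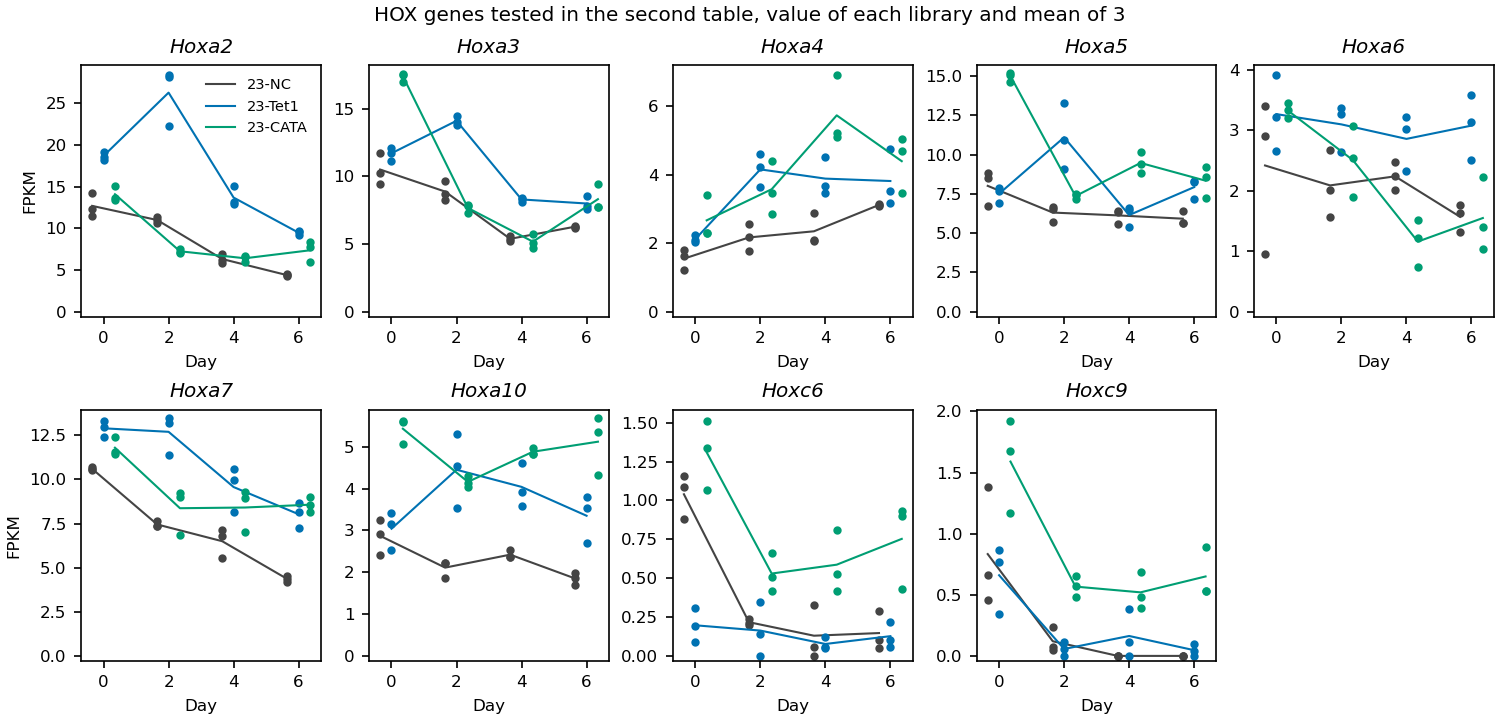
FPKM of HOX genes tested in the second table by day, 1 point per library and a line through the mean of 3, 23-NC grey, 23-Tet1 blue and 23-CATA green (y axes start at 0 and differ between panels). Hoxa2 and Hoxa7 lie highest in 23-Tet1 at days 2 and 4, and Hoxa10, Hoxc6 and Hoxc9 lie higher in 23-CATA than in 23-NC after day 0.

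In cells labelled 23-CATA, Hoxa10, Hoxa4 and Hoxc9 stood above 23-NC on all 4 days, while Hoxa2 and Hoxa3 changed sides with time. Called members numbered 6 at day 0, all higher, where 31.6% of all genes were called higher. Without the filter on low values, which tests silent members too, 8 were called higher and 4 lower at day 0. At day 2, 4 were higher and 2 lower (65% of all genes called), at day 4, 6 higher and 1 lower (68.7%), and at day 6, 9 higher (38% of all genes higher). The 23-NC libraries are shared with the comparison of 23-Tet1, so the results of both are not independent. Median fitted changes of the 10 members were 0.47, 0.19, 0.41 and 0.54 by day, against 0.11, 0.03, -0.08 and 0.02 for all genes. Adipocyte markers summed to 2318 to 2470 FPKM in 23-CATA against 32.8 to 34.4 in 23-NC at day 0 and to 54037 to 55396 against 10415 to 11804 at day 6, and their part in the HOX values was not tested.

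Hoxa10 was called higher in 23-CATA on all 4 days, and no 23-CATA library overlapped with 23-NC. It stood at 5.6, 5.07 and 5.61 FPKM at day 0 (0.63 ± 0.11, adjusted p = 2.52e-06), 4.03, 4.14 and 4.3 at day 2 (0.71 ± 0.11, adjusted p = 1.14e-06) and 4.98, 4.83 and 4.83 at day 4 (0.86 ± 0.11, adjusted p = 3.73e-07). At day 6 the values were 4.32, 5.35 and 5.69 against 1.7, 1.87 and 1.98 (1.08 ± 0.11, adjusted p = 4.23e-10). In 23-NC at day 0 it stood at 2.92, 3.26 and 2.42. Hoxa4 was called higher on all 4 days as well, most at day 4 with 5.1, 5.21 and 6.92 against 2.89, 2.1 and 2.06 (1.09 ± 0.15, adjusted p = 5.76e-07), and with 2.3, 2.3 and 3.41 at day 0 (0.41 ± 0.15, adjusted p = 0.00487) and 4.41, 2.87 and 3.46 at day 2 (0.50 ± 0.15, adjusted p = 0.00254). At day 0 Hoxa4 lost its call with quantile normalisation or without 23-CATA day 0 replicate 3 (adjusted p = 0.0562 to 0.142). At day 6 Hoxa4 lost its call without 23-CATA day 6 replicates 1 or 2 (adjusted p = 0.0735 to 0.109).

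Hoxc9 was called higher in 23-CATA on all 4 days, from low levels. It stood at 0.57, 0.65 and 0.48 FPKM against 0.24, 0.05 and 0.07 at day 2 (0.46 ± 0.14, adjusted p = 0.00376). At days 4 and 6 it was listed at 0 in all 23-NC libraries and in 23-CATA at 0.48, 0.69 and 0.39 on day 4 and at 0.53, 0.89 and 0.53 on day 6 (0.68 ± 0.14, adjusted p = 0.000495 and 0.70 ± 0.14, adjusted p = 5.15e-05), and with a group at 0 these changes depend on the 1 FPKM added to each value. Hoxc6 was higher at days 2, 4 and 6, with 0.51, 0.66 and 0.42 against 0.21, 0.20 and 0.24 at day 2 (0.30 ± 0.12, adjusted p = 0.0219). The groups did not overlap in these values, whereas for Hoxc9 at day 0 they did. At day 0 Hoxc9 lost its call with a pseudocount of 0.1 FPKM, with quantile normalisation, when only the compared groups were fitted or without 23-NC day 0 replicate 3 (adjusted p = 0.05 to 0.178). At day 2 Hoxc6 lost its call with a pseudocount of 0.1 FPKM, with quantile normalisation or without 23-NC day 2 replicate 2 or 23-CATA day 2 replicate 2 (adjusted p = 0.0531 to 0.0968).

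Hoxa3 and Hoxa5 were higher in 23-CATA before induction. At day 0 Hoxa3 was 17.5, 17 and 17.6 FPKM against 11.7, 10.2 and 9.45 (0.58 ± 0.07, adjusted p = 6.68e-09) and Hoxa5 was 15.1, 15.2 and 14.6 against 8.82, 8.5 and 6.7 (0.72 ± 0.10, adjusted p = 1.1e-07). At day 2 Hoxa3 was lower, 7.88, 7.81 and 7.29 against 8.27, 9.64 and 8.7 (-0.21 ± 0.07, adjusted p = 0.0266). Hoxa2 was lower too at day 2, 7.08, 7.21 and 7.47 against 11, 10.7 and 11.4 (-0.57 ± 0.09, adjusted p = 6.86e-06), the day at which it was highest in 23-Tet1. The day 2 value of Hoxa3 lost its call without 23-NC day 2 replicate 2 or 23-CATA day 2 replicate 3 (adjusted p = 0.102 to 0.158).

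By day 6 Hoxa2 and Hoxa7 were higher in 23-CATA: Hoxa2 was 8.38, 7.81 and 5.93 FPKM against 4.23, 4.53 and 4.38 (0.61 ± 0.09, adjusted p = 4.61e-07) and Hoxa7 was 8.99, 8.16 and 8.55 against 4.51, 4.38 and 4.2 (0.82 ± 0.10, adjusted p = 1.17e-08). Hoxa3 was called higher at day 6 too (0.33 ± 0.07, adjusted p = 1e-04). Hoxa5 was higher at day 4, 9.43, 10.2 and 8.8 against 6.35, 5.61 and 6.44 (0.64 ± 0.10, adjusted p = 2.7e-05). Hoxa6 was the exception at day 4, lower with 0.74, 1.52 and 1.22 against 2.47, 2.24 and 2.01 (-0.52 ± 0.21, adjusted p = 0.0121). This value of Hoxa6 lost its call without 23-CATA day 4 replicate 1 (adjusted p = 0.0833). The day 4 call of Hoxa7 ended when only the compared groups were fitted or without 23-NC day 4 replicate 3 (adjusted p = 0.0523 to 0.0608).

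Set against each other directly, 23-CATA and 23-Tet1 differed in 6 members at day 0 (64.2% of all genes called) and in 5 at day 6 (65.7%). At day 0 Hoxa3, Hoxa5, Hoxa10, Hoxc6 and Hoxc9 were higher in 23-CATA and Hoxa2 was lower. Hoxa5 stood at 15.1, 15.2 and 14.6 FPKM against 7.9, 7.68 and 6.95 (0.90 ± 0.10, adjusted p = 8.21e-09), Hoxc6 at 1.51, 1.34 and 1.07 against 0.09, 0.31 and 0.19 (0.94 ± 0.12, adjusted p = 1.11e-07), and Hoxa10 at 5.6, 5.07 and 5.61 against 3.15, 3.42 and 2.54 (0.67 ± 0.11, adjusted p = 4.24e-06). Hoxc9 was 1.17, 1.92 and 1.68 against 0.87, 0.77 and 0.34 (0.64 ± 0.14, adjusted p = 0.00024), and Hoxa2 was 15.1, 13.4 and 13.7 against 18.5, 18.2 and 19.2 (-0.39 ± 0.09, adjusted p = 0.000522). At day 0 the call of Hoxc9 ended with quantile normalisation (adjusted p = 0.325).

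At day 6, Hoxc9 (0.66 ± 0.14, adjusted p = 0.000229), Hoxc6 (0.63 ± 0.12, adjusted p = 6.65e-05) and Hoxa10 (0.50 ± 0.11, adjusted p = 0.000289) were higher in 23-CATA than in 23-Tet1. Hoxc9 stood at 0.53, 0.89 and 0.53 FPKM against 0.04, 0.10 and 0 and Hoxc6 at 0.90, 0.93 and 0.43 against 0.10, 0.06 and 0.22. Hoxa6, with 2.23, 1.03 and 1.4 against 2.51, 3.14 and 3.59, and Hoxa2, with 8.38, 7.81 and 5.93 against 9.24, 9.63 and 9.58, were lower (-0.69 ± 0.21, adjusted p = 0.00454 and -0.33 ± 0.09, adjusted p = 0.00203). None of these 5 pairs of groups overlapped. Leaving out any 1 library ended none of the 11 calls of days 0 and 6.

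From day 0 to day 6 the 23-NC cells changed in 9 of 10 members, 8 lower and Hoxa4 higher, where 40.5% of all genes were called lower and 31.7% higher. Hoxa2 fell from 14.2, 12.3 and 11.5 to 4.23, 4.53 and 4.38 FPKM (-1.27 ± 0.09, adjusted p = 7.51e-14) and Hoxa7 from 10.5, 10.6 and 10.7 to 4.51, 4.38 and 4.2 (-1.04 ± 0.10, adjusted p = 3.17e-11). Hoxa4 rose from 1.81, 1.62 and 1.22 to 3.12, 3.1 and 3.14 (0.77 ± 0.15, adjusted p = 0.000101). Hoxc6 and Hoxc9 fell too (-0.76 ± 0.12, adjusted p = 6.75e-07 and -0.77 ± 0.14, adjusted p = 5.44e-06), Hoxc9 from 1.38, 0.66 and 0.46 to 0 in each library. Both genes passed the filter only through day 0 libraries, so these falls give no separate support. The call of Hoxa10 ended with quantile normalisation (adjusted p = 0.0885).

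In 23-Tet1 the same interval gave 6 calls, 5 lower and Hoxa4 higher (44.7% of all genes lower and 32.8% higher). Hoxa2 changed by -0.79 ± 0.09, adjusted p = 3.08e-10, Hoxa7 by -0.51 ± 0.10, adjusted p = 1.67e-06, Hoxa3 by -0.38 ± 0.07, adjusted p = 5.11e-07 and Hoxc9 by -0.53 ± 0.14, adjusted p = 0.000146. Hoxa4 rose from 2.24, 2.09 and 2.03 to 4.76, 3.52 and 3.18 FPKM (0.73 ± 0.15, adjusted p = 0.000385). In 23-CATA 9 were called, 8 lower and Hoxa4 higher (49.7% and 27.3% of all genes). Hoxa3 fell there from 17.5, 17 and 17.6 to 9.46, 7.72 and 7.74 FPKM (-0.77 ± 0.07, adjusted p = 5.29e-13), and lower values were also called for Hoxa2 (-0.64 ± 0.09, adjusted p = 1.24e-09), Hoxa6 (-0.57 ± 0.21, adjusted p = 0.00116) and Hoxa5 (-0.56 ± 0.10, adjusted p = 9.12e-08). Hoxa4 rose to 5.04, 4.7 and 3.46 (0.78 ± 0.15, adjusted p = 0.00107). The call of Hoxa7 ended with quantile normalisation or with median-ratio scaling (adjusted p = 0.0663 to 0.0857). The call of Hoxc6 ended with a pseudocount of 0.1 FPKM, with quantile normalisation or without 23-CATA day 6 replicate 3 (adjusted p = 0.0639 to 0.379). With quantile normalisation the 23-CATA calls were 2 higher and 5 lower, since Hoxa10 was called higher there.

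The change from day 0 to day 6 itself differed between 23-Tet1 and 23-NC for 6 members, all with a larger value in 23-Tet1 (29.1% of all genes called higher). Among them were Hoxc6 (0.79 ± 0.18, adjusted p = 0.000515), Hoxa10 (0.58 ± 0.16, adjusted p = 0.00363), Hoxa7 (0.53 ± 0.14, adjusted p = 0.00334), Hoxa5 (0.48 ± 0.15, adjusted p = 0.0103) and Hoxa2 (0.47 ± 0.13, adjusted p = 0.00465). Hoxa10, for example, fell in 23-NC (-0.36) and had 0.22 in 23-Tet1 without a call. The call of Hoxc6 ended with quantile normalisation (adjusted p = 0.086). Hoxc6 passed the filter only through day 0 libraries of 23-NC and 23-CATA, so its difference here follows in part from the filter.

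Between 23-CATA and 23-NC it differed for 6 members as well, 4 with a larger and 2 with a smaller value in 23-CATA (63.5% of all genes called). Hoxa7 (0.79 ± 0.14, adjusted p = 8.88e-05), Hoxa2 (0.58 ± 0.13, adjusted p = 0.00178), Hoxc6 (0.52 ± 0.18, adjusted p = 0.0328) and Hoxa10 (0.45 ± 0.16, adjusted p = 0.0456) had the larger values. Hoxa5 (-0.31 ± 0.15, adjusted p = 0.0178) and Hoxa3 (-0.24 ± 0.10, adjusted p = 0.00607) fell more in 23-CATA, from their higher day 0 levels. With quantile normalisation and with median-ratio scaling 4 members were called, all larger, and without 23-NC day 6 replicate 1 or 23-CATA day 6 replicate 2 there were 3. Hoxa3 lost its call with quantile normalisation or with median-ratio scaling (adjusted p = 0.0606 to 0.0954). The call of Hoxa5 ended with quantile normalisation, with median-ratio scaling or without 23-NC day 0 replicate 3, 23-NC day 6 replicate 1 or 23-CATA day 6 replicate 2 (adjusted p = 0.0522 to 0.0969). Hoxc6 lost its call when only the compared groups were fitted or without 23-NC day 0 replicates 1 or 2, 23-NC day 6 replicates 1 or 2, 23-CATA day 0 replicate 3 or 23-CATA day 6 replicates 1 or 2 (adjusted p = 0.0569 to 0.0963). The call of Hoxa10 ended with no filter on low values, with a replicate block, when only the compared groups were fitted or without 23-NC day 0 replicates 1 or 2, 23-NC day 6 replicates 1 or 2, 23-CATA day 0 replicates 1, 2 or 3 or 23-CATA day 6 replicates 2 or 3 (adjusted p = 0.0518 to 0.127).

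Of the noncoding and antisense genes of the clusters, 17 of 18 listed were in the tables and few passed the filter, among them Hoxaas2 in both and Hoxaas3 in the second. Hoxaas2, whose exons overlap those of Hoxa3 on the opposite strand, fell in WT from 5.94, 6.09 and 5.65 FPKM at day 0 to 1.1, 0.83 and 1.15 at day 6 (-1.48 ± 0.28, adjusted p = 3.37e-05). In Tet1-KO it stood at 8.47, 13.2 and 7.06 at day 6 (2.54 ± 0.28, adjusted p = 7.29e-06 against WT), whereas Hoxa3 was at 7.29, 10.8 and 10.0 against 10.2, 7.96 and 8.54 without a call. In 23-Tet1 Hoxaas2 was higher than in 23-NC on all 4 days, most at day 2 with 6.02, 5.22 and 4.44 against 1.81, 1.17 and 1.57 (1.21 ± 0.15, adjusted p = 9.1e-09).

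TALE proteins (PBX, MEIS, PKNOX and TGIF) bind DNA with HOX proteins. In WT 9 of 11 tested were called lower at day 2, 9 at day 4 and 6 at day 6, and 0, 1 and 2 higher. Of all 11911 genes tested, 43.2%, 49.2% and 37.4% were lower on these days, and 2249, 2159 and 2284 genes were higher. Meis2 went from 22.8, 25.4 and 24.2 FPKM at day 0 to 3.19, 3.31 and 3.97 at day 4 (-1.97 ± 0.26, adjusted p = 1.47e-07). In 23-NC 8 of 12 were lower and 3 higher at day 6 (40.5% and 31.7% of all genes), with Meis3 changing by -1.29 ± 0.12, adjusted p = 4.61e-11. Pbxip1, which encodes a protein that binds PBX proteins and blocks their work with HOX proteins, was lower in Tet1-KO than in WT at day 0, 2.03, 1.63 and 2.08 against 18.6, 21.1 and 21.4 (-2.79 ± 0.49, adjusted p = 0.000619), and at days 2 and 4 (-2.34 ± 0.49, adjusted p = 0.0051 and -2.04 ± 0.49, adjusted p = 0.012). At day 6 Tet1-KO replicate 3 stood at 16.1 and the others at 1.43 and 0.76, and in the same replicate 3 Hoxc9 was lowest of the 3. This library was picked out after its values were seen, and a link between Pbxip1 and Hoxc9 was not tested.

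Among Polycomb genes, whose products keep HOX clusters silent in many cells, 18 of 28 tested were called lower in WT at day 2, 22 at day 4 and 14 at day 6, with 0, 1 and 3 higher. Of all 11911 genes tested, 43.2%, 49.2% and 37.4% were lower on these days, and 2249, 2159 and 2284 genes were higher. Against 23-NC, 23-CATA had 22 of 28 lower and 3 higher at day 6 (4454 of all 12231 genes tested were lower and 4644 higher), with a median relative change of -0.47. Among those lower were Cbx2 (-1.5 ± 0.10, adjusted p = 8.94e-14) and Ezh1 (-1.11 ± 0.05, adjusted p = 2.6e-17). At day 0 23-Tet1 had 13 of 28 higher and 3 lower, against 4619 and 2874 of all 12231 genes. Ezh2, a Polycomb methyltransferase gene, stood at 24.3, 26 and 25.9 FPKM against 10.5, 10.5 and 10.6 (1.1 ± 0.07, adjusted p = 1.26e-15). Trithorax and H3K27 demethylase genes, many of which act against Polycomb, had 12 of 15 lower and 1 higher in 23-CATA at day 6, Kmt2a among them (-1.57 ± 0.21, adjusted p = 1.28e-07), and 7 higher and 3 lower in 23-Tet1 at day 2, against 4734 and 3083 of all 12231 genes, where Kdm6b was higher (0.82 ± 0.13, adjusted p = 3.1e-07).

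Genes that flank the clusters were called in both directions. In WT at day 4, 4 of 16 flanking genes tested were called higher and 7 lower (18.1% and 49.2% of all genes), and Hibadh, beside Hoxa, rose (3.12 ± 0.42, adjusted p = 2.39e-05). In 23-CATA against 23-NC at day 6, 11 flanking genes were higher and 4 lower (4644 and 4454 of all 12231 genes), with Mtx2, beside Hoxd, higher (1.5 ± 0.12, adjusted p = 1.03e-12). Of other patterning homeobox and T-box genes 18, 19 and 17 of 21 tested were called lower in WT at days 2, 4 and 6, against the same 43.2%, 49.2% and 37.4% of all genes, and Prrx1, a limb and mesenchyme gene, went from 137, 140 and 133 FPKM at day 0 to 17.8, 17.6 and 22.5 at day 4 (-2.26 ± 0.38, adjusted p = 3.63e-06). In Tet1-KO against WT 7 of the 21 were higher and none lower at day 2 (16.2% of all genes higher), with Dlx2 at 2.6 ± 0.38, adjusted p = 0.000148.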

How the data were processed

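RNA of 60 C3H10T1/2 libraries was analysed from the authors' deposited FPKM, given to 2 decimals per gene in 2 tables, 24 libraries in the first and 36 in the second. Per the submitters' processing notes, reads were aligned with STAR 2.4.1a to mm10 and expression was estimated with RSEM; strand setting and annotation are not given in the sources used here. Titles gave the groups, although 11 samples titled 23-Tet1 carry another genotype tag. From the deposited FPKM, log2(FPKM + 1) was computed, which understates changes of low genes, for genes with at least 1 FPKM in 3 libraries of a table (11911 and 12231). Each table was fitted alone by limma 3.58.1 under R 4.3.3 (lmFit and contrasts.fit, then eBayes using a trend), all groups sharing the spread, in 24 comparisons, with Benjamini-Hochberg adjustment over all genes tested and calls under 0.05. The fit was tested on simulated data.

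Depth was read from low FPKM of 1851 genes with transcripts of 600 to 1500 bases, where a step is 1 fragment; 1 FPKM is about 25 fragments for Hoxa2 and 12 for Hoxa6. Promoter sequences are RefSeq's, matched by symbol; positions and overlaps use GENCODE M21. Members were accounted for by cluster and paralog number. Library values are given for members leading their cluster and for up to 4 called members each way per comparison with groups that do not overlap, the largest changes first; lists of other genes are given by counts with at most 2 named each way, and genes shown beyond that, such as Hoxa2 and Hoxa7 in Tet1-KO at day 0, were chosen after their values were seen. Counts over members and lists include 1 tested member and 1 cofactor gene that are not reported here. Members, lists and tests were chosen with earlier results of these data known. Alternatives were a pseudocount of 0.1, no filter, quantile normalisation, median-ratio scaling, a replicate block, library weights, fits of the compared groups alone, leaving out each library and, added after seeing the data, leaving out replicate 2 of Tet1-KO at days 2, 4 and 6. Figures used matplotlib 3.10.9, and tables pandas 2.3.3, under Python 3.11.15.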

Additional observations from a re-analysis of the deposited data

Results flagged for a closer look

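The change from day 0 to day 6 differed between populations for HOX members of the second table, by a limma test of the difference itself, and the values here are as fitted (log2, ± SE). In 23-Tet1 less 23-NC, Hoxc6 had 0.75 ± 0.18 (adjusted p = 0.000515), Hoxa10 0.54 ± 0.16 (0.00363), Hoxa7 0.49 ± 0.14 (0.00334), Hoxa5 0.44 ± 0.15 (0.0103) and Hoxa2 0.43 ± 0.13 (0.00465). For Hoxc6 the 23-Tet1 cells began low, at 0.09 to 0.31 FPKM at day 0 against 0.88 to 1.16 in 23-NC. Hoxc6 passed the filter only through day 0 libraries of 23-NC and 23-CATA, so this difference follows in part from the filter. In 23-CATA less 23-NC, Hoxa7 had 0.70 ± 0.14 (adjusted p = 8.88e-05), Hoxa2 0.48 ± 0.13 (0.00178), Hoxc6 0.43 ± 0.18 (0.0328), Hoxa10 0.36 ± 0.16 (0.0456), Hoxa5 -0.40 ± 0.15 (0.0178) and Hoxa3 -0.34 ± 0.10 (0.00607). Both sets use the same 23-NC libraries. Hoxa5 had opposite signs in the 2 sets: it fell from 15.0 ± 0.30 to 8.34 ± 1.00 FPKM (SD, n = 3) in 23-CATA and went from 7.51 ± 0.50 to 7.93 ± 0.63 in 23-Tet1.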

How the results depend on the processing

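Of 135 calls among 240 member comparisons, 89 held under every alternative run and 46 were lost under at least one; of 105 not called, 46 were called under at least one. The silent counts of 29 lay between 27 and 31. Changes in this section are as fitted, and no cause was tested. The share of all genes called was not worked out for the alternatives. Their counts show how the calls move and are not read as a result about HOX genes. Members called without the filter, which tests silent genes too, numbered 6 for Tet1-KO against WT at day 0 and 2 at day 6, 2 for the difference of their changes, 15 each for WT days 2, 4 and 6, 8 for 23-Tet1 against 23-NC at day 0, 12 and 10 for 23-CATA against 23-NC at days 0 and 2, 12 for 23-CATA against 23-Tet1 at day 0, and 14 each for day 6 in 23-NC and 23-CATA. A pseudocount of 0.1 gave 1 for Tet1-KO against WT at day 0. Quantile normalisation gave 0 for Tet1-KO against WT at day 2, 5, 4 and 4 for WT by day, 1 for Tet1-KO day 6, 1 for the difference of changes and 3 for 23-CATA against 23-NC at day 0; median-ratio scaling gave 1, 4 (WT day 4) and 2 (Tet1-KO day 6). Library weights gave 6, 4 and 9 for Tet1-KO against WT at days 0, 2 and 4, 4 for the difference of changes and 5 for 23-Tet1 against 23-NC at day 0. Fits of the compared groups gave 5, 1 and 0 for Tet1-KO against WT at days 0, 2 and 6 and 0 for Tet1-KO day 6. Without Tet1-KO day 6 replicate 2 in the shared fit the counts were 5, 4, 2 and 2 by day and 2 for the difference, and without replicate 2 at days 2, 4 and 6 they were 5, 5, 4, 4 and 2.

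Leaving out 1 library at a time gave 0 to 3 calls for Tet1-KO against WT at day 2, 1 to 2 at day 6, 0 to 2 for the difference of changes and 3 to 6 for that between 23-CATA and 23-NC; the libraries are named with the results. In these fits without 1 library all other counts of calls stayed within 1.5 times their value.

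Signs turned for Hoxa2 (0.43) and Hoxa7 (0.37) in Tet1-KO against WT at day 6 without replicate 2 of Tet1-KO at days 2, 4 and 6, Hoxa10 with quantile normalisation (0.04 in WT day 4 and 0.29 in 23-CATA day 6) and Hoxc9 with library weights in the Tet1-KO difference (0.76). Same-numbered libraries did not regularly deviate together (correlations -0.411 to 0.42, above 0.1 for every pair in 1 of 21 comparisons). With so few libraries a group, such correlations cannot exclude a pairing by number. With a replicate block the count rose from 8 to 9 for WT day 2 and fell from 6 to 5 for 23-Tet1 day 6 and for the 23-CATA difference (Hoxa10, adjusted p = 0.0546), and no other call was lost.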
